A study of Mus musculus with 6 samples.

Results

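Digits in a dish (DID) cultures are high-density cultures in which dissociated cells of the early limb bud form skeletal elements again, and their RNA content was compared between Day 7 and Day 2 of culture over whole cultures, without division into cell types. The comparison takes the 4 libraries titled Day 2 and Day 7, replicates A and B of each, of the 6 libraries of the series. Each library is one culture, and its unique molecular identifiers (UMIs, which count captured RNA molecules) were summed over the barcodes with at least 1000 UMIs, 200 to 7500 detected genes and at most 25% of UMIs from mitochondrial genes. These limits kept 51858 of 66539 barcodes, namely 9536 and 16635 cells at Day 2 and 13485 and 12202 cells at Day 7. All cultures were started from distal forelimb mesenchyme of wild-type CD-1 embryos at E11.5, dissected as the outer part of the limb bud, pooled over embryos and grown in medium with fetal bovine serum. The Day 2 and Day 7 groups share strain, stage, tissue and medium and differ in time since seeding. The replicates are independent cultures, but cells of many embryos enter each of them, so the spread between replicates does not measure variation between embryos.

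The limb skeleton forms through a cartilage template. Mesenchymal cells condense and turn on the transcription factor SOX9 with its partners SOX5 and SOX6, and the resulting chondrocytes fill the space around them with type II, IX and XI collagen and with aggrecan, a proteoglycan that holds water. Older chondrocytes enlarge (hypertrophy), switch to type X collagen and mineralize their matrix, while the cells around the cartilage form perichondrium, tendon and joint tissue. In the limb bud itself, HOX, TBX and MEIS transcription factors and signals of the FGF, BMP, WNT, hedgehog and retinoic acid families set position and growth before these tissues mature.

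The 4 libraries (n = 2 per day) held between 179532169 and 213667142 UMIs in the kept cells. Day 2 replicate B stood apart in depth per cell, with a median of 3872 UMIs against 18564 in Day 2 replicate A and 8878 and 10637 at Day 7, and 41.4% of its cells had fewer than 3000 UMIs. Levels are given as CPM, the UMIs of a gene per 1000000 UMIs of its library after the library size was scaled by the trimmed mean of M-values (TMM). They serve to compare a gene with itself between libraries and do not rank genes against each other. A fold change is the fitted log2 ratio of Day 7 over Day 2 from edgeR. A gene was called when the Benjamini-Hochberg adjusted p of edgeR's quasi-likelihood test over all genes tested was under 0.05. The value after ± is a standard error derived from that test, the absolute log2 fold change divided by the square root of its F statistic. Changes written with ± are on the log2 scale throughout. Any 2 of the 4 libraries shared between 31 and 65 cell barcodes.

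Of the 18988 genes tested, 6795 (35.8%) were called higher and 6611 (34.8%) lower at Day 7, so most genes differed between these cultures. Both Day 7 libraries lay above both Day 2 libraries for 8220 genes and below both for 7998, so such separation was common. A change of at least 2-fold was reached by 2863 genes upwards (15.1%) and by 2432 downwards (12.8%). Counts of list members below are calls without a fold limit and are read against 35.8% higher and 34.8% lower. A list near these shares did not stand out from all genes by its count. Without Day 2 replicate B, 6486 genes were called higher and 6360 lower. The balance of higher and lower calls depended on the scaling. With library totals in place of TMM factors the median log2 fold change over all genes moved from 0.01 to -0.28, and 4572 genes were then called higher and 9459 lower. A further setting thinned every cell to 1000 UMIs, which left 13685 genes tested, 3984 called higher and 3937 lower. The main sums weight a cell by its UMIs, whereas thinning gives every cell the same weight, with TMM factors kept. List members that thinning left untested are not in its counts. A smaller count in thinned cells can therefore also mean fewer members tested. Small rises are relative to the scaling, because library totals moved the balance. A gene group is described below with both scalings where its direction depends on them.

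**Figure D1:**
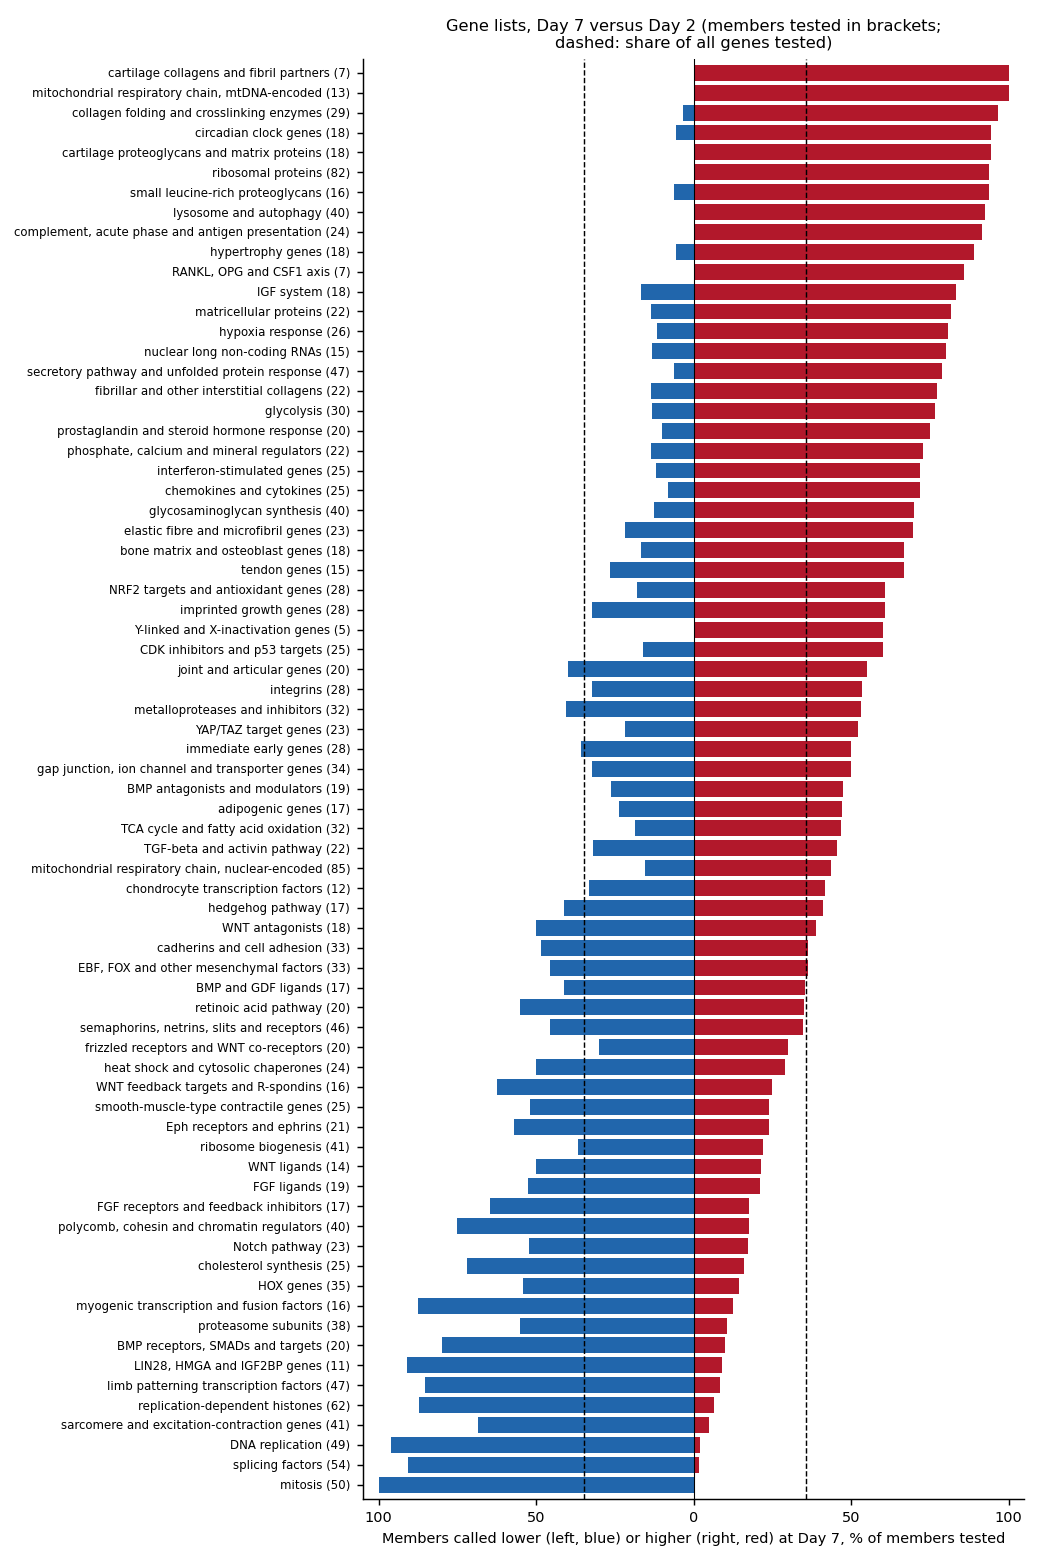
Share of members called higher (red, to the right) or lower (blue, to the left) at Day 7 for 72 gene lists, in percent of the members tested, whose number stands in brackets. The dashed lines mark the shares over all 18988 genes tested, 35.8% higher and 34.8% lower, and the lists at the top and at the bottom of the plot lie far outside them.

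Cartilage matrix genes were among the genes with the largest rises. 7 of 7 cartilage collagens were higher at Day 7, with a median log2 fold change of 3.60, and together they took 1532 and 1683 CPM at Day 2 and 19444 and 18218 CPM at Day 7. *Col2a1*, the chain of type II collagen that makes the bulk of cartilage fibrils, was measured at 539 and 598 CPM at Day 2 and 9297 and 8641 CPM at Day 7. Both Day 7 cultures stood far above both Day 2 cultures (log2 fold change 3.98 ± 0.10, edgeR adjusted p = 6.98e-09). The type XI chains that set fibril diameter followed, *Col11a1* at 279 and 343 CPM at Day 2 and 4509.7 and 4191 CPM at Day 7 (log2 fold change 3.81 ± 0.11) and *Col11a2* at 19.5 and 23.5 CPM at Day 2 and 876 and 793 CPM at Day 7 (5.28 ± 0.11). The type IX chains that decorate these fibrils rose unequally, *Col9a3* most (3.60 ± 0.07), then *Col9a2* (3.09 ± 0.06) and *Col9a1* (1.92 ± 0.07). *Col27a1*, a fibrillar collagen of cartilage, rose by 2.77 ± 0.06 log2 units.

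The proteoglycans and proteins that fill the space between these fibrils rose further, with 17 of 18 members higher, none lower and a median of 4.74. Their summed level went from 461 and 474 CPM at Day 2 to 8229 and 7976 CPM at Day 7. *Acan*, which encodes aggrecan, was at 24.1 and 32.4 CPM at Day 2 and 1109 and 1030.2 CPM at Day 7 (log2 fold change 5.24 ± 0.15, edgeR adjusted p = 1.45e-08). *Hapln1*, the link protein that ties aggrecan to hyaluronan, was at 19.3 and 25.7 CPM at Day 2 and 897 and 863 CPM at Day 7 (5.29 ± 0.14). The pair thus rose by nearly the same factor. *Matn1*, the first of the matrilins, which bridge collagen and aggrecan, stood at 6.63 and 8.76 CPM at Day 2 and 1755 and 1670.5 CPM at Day 7, and *Matn3* at 4.86 and 5.63 CPM at Day 2 and 119 and 114 CPM at Day 7. *Matn4*, the fourth matrilin, was already present at Day 2 and rose by only 1.26 ± 0.05, from 155 and 153 CPM at Day 2 to 375 and 364 CPM at Day 7.

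Several matrix genes were almost silent at Day 2. *Ucma*, which encodes a secreted protein of the upper growth plate, was at 0.0510 and 0.0242 CPM at Day 2 and 44.9 and 52.3 CPM at Day 7 and thus at 12 and 5 UMIs in the Day 2 libraries. *Snorc*, a small proteoglycan of chondrocytes, rose from a mean of 2.16 CPM at Day 2 to 1117 CPM at Day 7 (log2 fold change 9.02 ± 0.16), and *Comp*, the pentameric protein that links collagen fibrils, from a mean of 1.33 CPM at Day 2 to 480.1 CPM at Day 7 (8.501 ± 0.12). The leucine-rich proteoglycan *Epyc* was at 0.523 and 0.942 CPM at Day 2 and 152 and 149 CPM at Day 7 and *Scrg1* at 1.84 and 2.13 CPM at Day 2 and 125 and 125 CPM at Day 7. *Cnmd*, which encodes chondromodulin, was not silent at Day 2, at 14.0 and 18.1 CPM, and was at 525 and 498 CPM at Day 7. For each of these genes both Day 7 cultures were above both Day 2 cultures, as for 8220 of all 18988 genes tested. *Mia*, a secreted protein of early chondrocytes, was well above detection at Day 2 and rose by 2.93 ± 0.07 log2 units. *Cilp*, an intermediate-layer protein of cartilage, was the member without a call, at a mean of 0.120 CPM at Day 2 and 0.0949 CPM at Day 7 (-0.34 ± 0.33, edgeR adjusted p = 0.377).

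The transcription factors over these genes did not follow. *Sox9*, the factor without which no cartilage forms, was at 321 and 349.7 CPM at Day 2 and 313 and 304 CPM at Day 7, a difference that did not pass the test (log2 fold change -0.12 ± 0.06, edgeR adjusted p = 0.109). It was called lower with library totals (-0.42), by DESeq2 (-0.14) and without Day 2 replicate A (-0.18). *Sox5* (0.17 ± 0.05) and *Sox6* (0.25 ± 0.06) passed as small rises with TMM factors, and with library totals both had a negative log2 fold change (-0.13 and -0.04). Of the 12 chondrocyte factors, 5 were higher and 4 lower, and the median was -0.07. With library totals 3 were higher and 8 lower (median -0.36), and with every cell thinned to 1000 UMIs 4 and 4 (median 0.20). The members that rose most were the forkhead factors *Foxa3*, from 1.87 and 1.78 CPM at Day 2 to 14.8 and 14.7 CPM at Day 7 (3.01 ± 0.06), and *Foxa2*, from a mean of 0.0291 CPM at Day 2 to 1.87 CPM at Day 7, which are known to act in maturing chondrocytes. *Pax9* (-1.72 ± 0.13) and *Barx2* (-1.87 ± 0.21) fell. *Wwp2*, a ubiquitin ligase whose gene carries a cartilage microRNA and is induced by SOX9, was at 189 and 224 CPM at Day 2 and 334 and 341 CPM at Day 7 (0.71 ± 0.08).

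Hypertrophy genes were higher in 16 and lower in 1 of 18 cases. *Col10a1*, the collagen of hypertrophic cartilage, was at 4.32 and 3.91 CPM at Day 2 and 32.7 and 29.3 CPM at Day 7 (log2 fold change 2.91 ± 0.17, edgeR adjusted p = 9.26e-07). *Ihh*, the signal that prehypertrophic chondrocytes send to the perichondrium, was at 4.89 and 5.66 CPM at Day 2 and 16.2 and 17.1 CPM at Day 7 (1.66 ± 0.07). Its partner in the growth plate loop moved the other way, since *Pthlh*, which encodes the peptide that holds chondrocytes back from hypertrophy, fell from 14.6 and 13.7 CPM at Day 2 to 1.88 and 2.67 CPM at Day 7 (-2.64 ± 0.14). *Pth1r*, the receptor of that peptide, rose by 0.81 ± 0.06 log2 units. *Fgfr3*, a brake on chondrocyte growth, was at 14.7 and 18.1 CPM at Day 2 and 121 and 109 CPM at Day 7 (2.80 ± 0.10), and *Panx3*, a channel of prehypertrophic chondrocytes, went from 1.53 and 2.04 CPM at Day 2 to 51.2 and 45.1 CPM at Day 7. *Runx2* and *Sp7*, factors that drive hypertrophy and bone formation, rose by 0.71 ± 0.06 and 1.76 ± 0.08 log2 units. *Mmp13*, the collagenase of late hypertrophic cartilage, had 1 and 2 UMIs at Day 2 and 404 and 456 UMIs at Day 7. Its Day 2 count is too small for a fold change to be given, and its level was 2.01 and 2.40 CPM at Day 7 and 17.6 and 18.6 CPM in the Day 10 libraries. *Vegfa*, which attracts vessels, rose from a mean of 24.7 CPM at Day 2 to 58.1 CPM at Day 7 (1.23 ± 0.05).

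Genes that control mineral were mostly higher, 16 of 22, with 3 lower, and 15 and 5 with library totals. *Mgp*, which encodes an inhibitor of calcification, was at 315 and 317 CPM at Day 2 and 1572 and 1583 CPM at Day 7 (log2 fold change 2.32 ± 0.07, edgeR adjusted p = 1.69e-08), and *Enpp1* and *Ank*, which supply the inhibitor pyrophosphate, rose by 1.73 ± 0.06 and 1.31 ± 0.06 log2 units. On the other side, *Alpl*, the phosphatase that removes pyrophosphate, rose by 2.497 ± 0.11 log2 units to 19.4 and 17.6 CPM, and *Phospho1*, which frees phosphate inside matrix vesicles, was at 0.0340 and 0.0725 CPM at Day 2 and 0.498 and 0.590 CPM at Day 7. Both inhibitors and promoters of mineral were thus higher. *Trpv4*, a calcium channel that senses load in chondrocytes, rose from 1.80 and 2.52 CPM at Day 2 to 37.8 and 36.0 CPM at Day 7, and *S100a1*, a calcium-binding protein, from 3.17 and 2.87 CPM at Day 2 to 44.0 and 43.9 CPM at Day 7. The carbonic anhydrases split, with *Car9* (6.44 ± 0.13) and *Car12* (1.03 ± 0.09) higher and *Car2* (-2.58 ± 0.28) and *Car3* (-2.5002 ± 0.18) lower.

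Connective tissue genes outside cartilage rose as well. 15 of 16 small leucine-rich proteoglycans, which bind collagen and growth factors, were higher with a median of 2.88, and 1, *Podnl1*, was lower (log2 fold change -0.83 ± 0.10). *Dcn*, which encodes decorin, was at 4.23 and 4.44 CPM at Day 2 and 133 and 142 CPM at Day 7 (4.99 ± 0.07, edgeR adjusted p = 9.44e-10). *Lum* was at 24.8 and 25.6 CPM at Day 2 and 196 and 204 CPM at Day 7 (2.99 ± 0.06), *Bgn* at 108 and 97.7 CPM at Day 2 and 708 and 694 CPM at Day 7 (2.77 ± 0.08) and *Ogn* at 89.8 and 103 CPM at Day 2 and 477 and 487 CPM at Day 7 (2.32 ± 0.08). Among these 4 the fold change was largest for decorin and smallest for osteoglycin (*Ogn*), with lumican and biglycan (*Bgn*) between them. *Podn*, a relative that slows smooth muscle growth, rose by 5.53 ± 0.14 log2 units, and *Omd* and *Aspn* rose by 3.53 ± 0.08 and 2.51 ± 0.08 log2 units.

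Among interstitial collagens 17 of 22 were higher and 3 lower. The type I chains of bone, tendon and skin were at 497 and 515 CPM at Day 2 and 1916 and 1805 CPM at Day 7 for *Col1a1* (log2 fold change 1.88 ± 0.08) and 298 and 298 CPM at Day 2 and 2111 and 2012 CPM at Day 7 for *Col1a2* (2.79 ± 0.08). *Col3a1*, the collagen of soft connective tissue, rose less, by 1.08 ± 0.09 log2 units. The 3 chains of type VI collagen, which surrounds cells with beaded filaments, moved together, *Col6a1* by 2.41 ± 0.06 log2 units, *Col6a2* by 2.35 ± 0.06 log2 units and *Col6a3* by 2.59 ± 0.07 log2 units. *Col16a1*, which associates with fibrils, rose most (3.52 ± 0.07), and the transmembrane and nerve-associated *Col25a1* fell from 36.7 and 33.9 CPM at Day 2 to 8.41 and 7.72 CPM at Day 7 (-2.13 ± 0.07), as did *Col24a1* (-1.997 ± 0.13) and *Col26a1* (-0.65 ± 0.10, and -0.11 without a call in thinned cells). The basement membrane chain *Col4a1* did not pass (0.10 ± 0.06, with -0.19 by library totals and 0.35 in thinned cells), while *Col4a2* rose by 0.50 ± 0.05 log2 units and had a log2 fold change of 0.20 with library totals.

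Elastic fibre genes were higher in 16 and lower in 5 of 23 cases, with 3 lower in thinned cells and 3 without Day 7 replicate B. The lysyl oxidases that crosslink elastin and collagen all rose, *Lox* from 28.0 and 28.4 CPM at Day 2 to 193 and 182 CPM at Day 7 (log2 fold change 2.73 ± 0.08), *Loxl1* by 1.55 ± 0.06 log2 units, *Loxl2* by 1.05 ± 0.08 log2 units, *Loxl3* by 3.05 ± 0.07 log2 units and *Loxl4* by 5.22 ± 0.12 log2 units. *Eln*, elastin itself, rose by 0.81 ± 0.08 log2 units. Of the fibrillins *Fbn1* was higher (0.64 ± 0.07), and the embryonic *Fbn2* passed narrowly as lower (-0.21 ± 0.08, edgeR adjusted p = 0.0384). The log2 fold change of *Fbn2* was 0.26 in thinned cells, and its call was lost without Day 2 replicate B (-0.16) or Day 7 replicate B (-0.13). *Mfap2* and *Fbln1* fell (-0.63 ± 0.08 and -0.63 ± 0.06). Matricellular proteins, which signal from the matrix without building it, were higher in 18 and lower in 3 of 22 cases. *Ccn5*, an inhibitor of growth in mesenchymal cells, went from 0.310 and 0.348 CPM at Day 2 to 49.0 and 50.7 CPM at Day 7 (7.25 ± 0.08), *Postn* from 14.7 and 12.03 CPM at Day 2 to 155 and 166 CPM at Day 7 (3.59 ± 0.11) and *Thbs2*, a perichondrium marker, from 11.8 and 12.8 CPM at Day 2 to 100.8 and 90.3 CPM at Day 7 (2.96 ± 0.07). *Sparc*, which assists collagen assembly, rose from a mean of 664 CPM at Day 2 to 2754 CPM at Day 7 (2.05 ± 0.10). Against this, *Vcan*, the large proteoglycan of undifferentiated limb mesenchyme, fell from 283 and 251 CPM at Day 2 to 92.8 and 95.8 CPM at Day 7 (-1.502 ± 0.09, edgeR adjusted p = 1.28e-06), as did *Tnn* (-1.32 ± 0.21) and *Sparcl1* (-0.47 ± 0.09).

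The machinery that makes this matrix rose with it. 28 of 29 enzymes and chaperones of collagen were higher and 1, the protease *Tll1* (log2 fold change -0.44 ± 0.11, and 0.40 in thinned cells), was lower, with a median of 1.38. The prolyl hydroxylases that stabilise the triple helix were at 124 and 126 CPM at Day 2 and 437 and 421 CPM at Day 7 for *P4ha1* (1.78 ± 0.06) and 47.9 and 45.8 CPM at Day 2 and 188 and 195 CPM at Day 7 for *P4ha2* (2.03 ± 0.05). The lysyl hydroxylases rose to a like degree, *Plod1* by 1.97 ± 0.06 log2 units, *Plod2* by 1.91 ± 0.08 log2 units and *Plod3* by 1.38 ± 0.06 log2 units. *P3h1* and *Crtap*, partners in a prolyl 3-hydroxylase complex, rose by 2.21 ± 0.07 and 1.45 ± 0.06 log2 units. *Serpinh1*, the collagen chaperone HSP47, was at 634 and 567 CPM at Day 2 and 1658 and 1574 CPM at Day 7 (1.43 ± 0.08), and *Creb3l1*, a factor that drives collagen secretion, rose by 2.22 ± 0.06 log2 units. *Colgalt2*, a collagen galactosyltransferase, was the member with the largest rise, from 0.926 and 1.21 CPM at Day 2 to 12.1 and 12.1 CPM at Day 7 (3.51 ± 0.14).

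Synthesis of the sugar chains of proteoglycans was higher in 28 and lower in 5 of 40 genes, and in 24 and 11 with library totals. The first step, the addition of xylose to the core protein, is carried out by *Xylt1* and its relative Xylt2, and *Xylt1* rose from 9.73 and 10.1 CPM at Day 2 to 85.5 and 78.9 CPM at Day 7 (log2 fold change 3.05 ± 0.06), and *Csgalnact1*, which commits the chain to chondroitin, rose from 5.85 and 7.06 CPM at Day 2 to 78.2 and 72.8 CPM at Day 7 (3.55 ± 0.09). *Chst11*, which sulfates chondroitin, rose by 2.01 ± 0.09 log2 units. Sulfate supply rose too, with the transporter *Slc26a2* at 12.8 and 15.1 CPM at Day 2 and 82.5 and 75.5 CPM at Day 7 (2.51 ± 0.10) and the activating enzyme *Papss2*, the cartilage form, rising by 2.13 ± 0.07 log2 units. The members that fell were the sulfatase *Sulf1* (-0.89 ± 0.07), the sulfotransferases *Chst3* (-0.85 ± 0.08), *Chst15* (-0.73 ± 0.08) and *Hs6st1* (-0.32 ± 0.05), and the hyaluronan synthase *Has1* (-1.04 ± 0.31), while *Has2* rose by 0.69 ± 0.09 log2 units. *Hs6st1* had no call in thinned cells (-0.20). The call of *Has1* was lost without Day 2 replicate B (-0.53) or Day 7 replicate B (-0.92).

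In the secretory pathway 37 of 47 genes were higher and 3 lower, and 31 and 9 with library totals. Among members with at least 5 CPM at the higher day, *Trib3*, *Atf5*, *Ddit3* and *Chac1* rose most. Which stress response their rise belongs to was not tested. *Atf4* was at 111 and 111 CPM at Day 2 and 286 and 288 CPM at Day 7 (log2 fold change 1.37 ± 0.06), and its known targets *Trib3* at 3.47 and 3.06 CPM at Day 2 and 56.0 and 52.5 CPM at Day 7 (4.05 ± 0.07, edgeR adjusted p = 2.31e-09), *Ddit3* at 11.7 and 11.3 CPM at Day 2 and 65.4 and 67.2 CPM at Day 7 (2.53 ± 0.08) and *Chac1* at 8.41 and 7.52 CPM at Day 2 and 44.5 and 47.3 CPM at Day 7 (2.53 ± 0.07). *Atf5* rose from a mean of 28.0 CPM at Day 2 to 208 CPM at Day 7 (2.90 ± 0.06). The chaperones of the endoplasmic reticulum moved little in comparison, *Hspa5* by 0.25 ± 0.07 log2 units and *Calr* by 0.35 ± 0.08 log2 units, and *Hsp90b1* did not pass (-0.16 ± 0.08). With library totals *Hspa5* had a log2 fold change of -0.04, *Calr* lost its call (0.05) and *Hsp90b1* was called lower (-0.45), as it was by DESeq2 (-0.17) and without Day 2 replicate B (-0.24). The protein disulfide isomerase *Pdia3* and the chaperone partners *Dnajb11* and *Dnajc10* fell (-0.18 ± 0.07, -0.19 ± 0.04 and -0.43 ± 0.06), the calls of *Pdia3* and *Dnajb11* being lost when 1 library was left out (-0.10 for *Pdia3* without Day 2 replicate A, -0.21 and -0.18 without Day 7 replicate A and -0.13 and -0.17 without Day 7 replicate B). The exact sequence TGATGNAAT of the ATF4 element, read on both strands, was in none of the 40 promoter windows of this list (the 250 bases before each annotated start, RefSeq on GRCm38.p6, with more than 1 start for some genes) and in 0.816% of all 32851 windows.

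Matrix breakdown was less uniform. Of 32 metalloproteases and their inhibitors 17 were higher and 13 lower, and 15 and 8 in thinned cells. The inhibitors *Timp1*, *Timp2* and *Timp3* all rose, *Timp1* from 55.5 and 46.0 CPM at Day 2 to 314 and 317 CPM at Day 7 (log2 fold change 2.63 ± 0.09), *Timp2* by 1.12 ± 0.07 log2 units and *Timp3* by 1.0005 ± 0.06 log2 units. *Mmp23* (2.25 ± 0.11), *Mmp16* (1.37 ± 0.06) and *Mmp2* (1.04 ± 0.06) were higher, and *Mmp11* was lower, at 21.7 and 18.2 CPM at Day 2 and 7.83 and 7.82 CPM at Day 7 (-1.35 ± 0.08). Among the ADAMTS proteases falls were measured in *Adamts5* (-0.38 ± 0.08), *Adamts1* (-0.53 ± 0.05), *Adamts9* (-0.69 ± 0.07), *Adamts18* (-1.751 ± 0.13), *Adamts15* (-1.79 ± 0.10) and *Adamts19* (-2.21 ± 0.11) and rises in *Adamts12* (1.66 ± 0.06), *Adamts4* (0.75 ± 0.08) and *Adamts6* (0.21 ± 0.06), the last of which turned negative with library totals (-0.08). The calls of *Adamts5* (-0.18) and *Adamts9* (-0.08) were lost in thinned cells. *Mmp3* had 4 and 0 UMIs at Day 2 and 496 and 323 UMIs at Day 7.

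The lists of neighbouring tissues were mixed. Of 18 bone genes 12 were higher, among them *Ibsp*, from 0.0765 and 0.242 CPM at Day 2 to 3.50 and 5.26 CPM at Day 7 (log2 fold change 4.82 ± 0.42), and *Spp1*, from 299 and 215 CPM at Day 2 to 561 and 577 CPM at Day 7 (1.147 ± 0.13), and *Dlx5*, *Phex* and *Sost* fell (-0.59 ± 0.07, -1.33 ± 0.13 and -2.48 ± 0.50). *Bglap2*, an osteocalcin gene with a near-identical neighbour, reached no more than 0.578 and 0.422 CPM. Of 15 tendon genes 10 were higher and 4 lower, with 7 and 4 by library totals. *Scx*, the transcription factor that marks tendon progenitors, fell from 122 and 109.9 CPM at Day 2 to 40.2 and 38.8 CPM at Day 7 (-1.56 ± 0.06, edgeR adjusted p = 1.13e-07), and the later tendon factor *Mkx* fell (-0.29 ± 0.07), which came to -0.01 in thinned cells. The matrix protein *Tgfbi* (-0.41 ± 0.06) and the factor *Egr1* (-0.73 ± 0.07), an immediate early gene, were the other members that fell. *Fmod*, a collagen-binding proteoglycan, rose by 3.20 ± 0.07 log2 units and *Thbs4* by 3.55 ± 0.18 log2 units. *Tnmd*, the tendon cell surface marker, passed narrowly (0.36 ± 0.14, edgeR adjusted p = 0.0487). Its log2 fold change was 0.06 with library totals and -0.15 in thinned cells, and its call was lost without Day 2 replicate A (0.14) or Day 7 replicate B (0.24).

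Joint genes were divided, with 11 higher and 8 lower of 20, and 11 and 3 in thinned cells. *Gdf5*, the growth factor of the joint interzone, fell from 19.8 and 17.2 CPM at Day 2 to 9.16 and 11.7 CPM at Day 7 (log2 fold change -0.83 ± 0.12), as did *Wnt9a* (-1.36 ± 0.13), *Erg* (-1.38 ± 0.07), *Osr2* (-0.71 ± 0.14) and *Barx1* (-0.66 ± 0.17), which mark the early interzone. The calls of *Gdf5* (-0.31), *Osr2* (-0.43) and *Barx1* (-0.47) were lost in thinned cells. *Sfrp2*, a secreted WNT antagonist of that region, fell from 249.8 and 212 CPM at Day 2 to 34.4 and 34.2 CPM at Day 7 (-2.75 ± 0.10). *Prg4*, which encodes the lubricant of the joint surface, rose from 1.84 and 1.87 CPM at Day 2 to 42.7 and 29.9 CPM at Day 7 (4.29 ± 0.16, edgeR adjusted p = 7.20e-08). *Abi3bp*, a matrix protein of the perichondrium and articular surface, was at 6.79 and 5.93 CPM at Day 2 and 76.1 and 80.7 CPM at Day 7 (3.62 ± 0.08), and *Vit* rose from a mean of 0.0302 CPM at Day 2 to 1.31 CPM at Day 7.

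**Figure D2:**
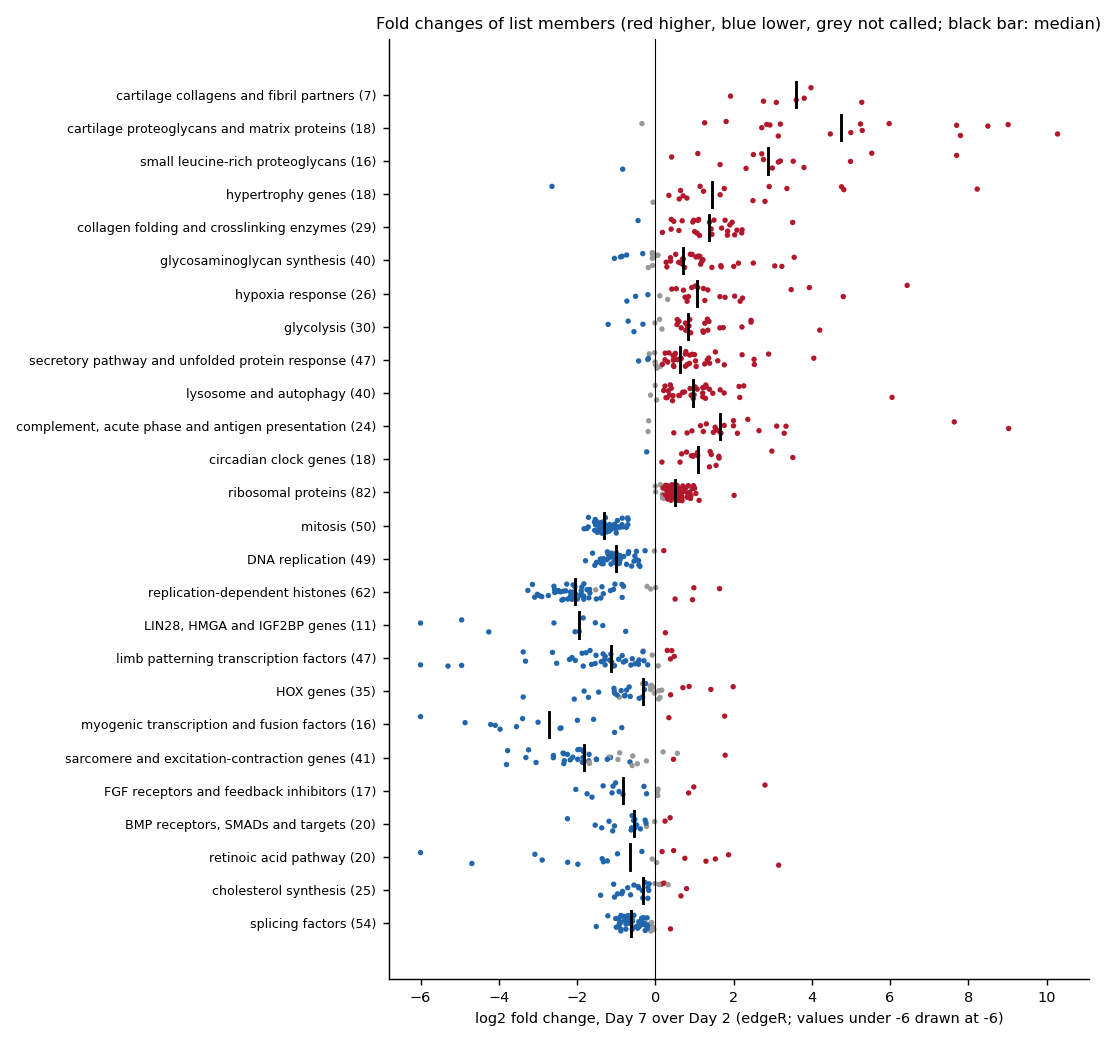
Fitted log2 fold change of Day 7 over Day 2 for every tested member of 26 gene lists (red higher, blue lower, grey not called, black bar the median of the list, number of members in brackets, the lowest values drawn at the left edge). The cartilage matrix lists lie on the right with medians of 3.60 and 4.74, and mitosis, histones and the LIN28, HMGA and IGF2BP genes lie on the left with medians of -1.30, -2.04 and -1.94.

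Genes of limb position and early limb growth fell. Of 47 limb patterning factors 40 were lower, 4 higher, and the median was -1.14. *Tbx5*, which starts the forelimb, was at 118 and 117 CPM at Day 2 and 36.6 and 37.6 CPM at Day 7 (log2 fold change -1.67 ± 0.05, edgeR adjusted p = 2.44e-08). *Prrx1*, a general factor of limb mesenchyme, was at 420.2 and 423 CPM at Day 2 and 225 and 216 CPM at Day 7 (-0.94 ± 0.05), while its relative *Prrx2* did not pass (-0.08 ± 0.07) and was called lower with library totals (-0.37), in thinned cells (-0.32) and without Day 2 replicate B (-0.16). Further falls were measured for *Tbx2* (-2.52 ± 0.10), *Tbx3* (-2.13 ± 0.06) and *Tbx18* (-1.87 ± 0.06), for the dorsal factor *Lmx1b* (-1.51 ± 0.11) and for *Msx2* (-1.54 ± 0.09), a target of BMP signals in the limb bud. *Msx1* fell from 20.2 and 20.1 CPM at Day 2 to 9.99 and 9.57 CPM at Day 7 (-1.04 ± 0.06). *Mycn*, which drives growth of the early mesenchyme, was at 13.5 and 12.3 CPM at Day 2 and 0.439 and 0.395 CPM at Day 7, the largest fall of the list among members with at least 5 CPM (-4.95 ± 0.11). *Sall4* had 87 and 69 UMIs at Day 2 and 0 and 0 UMIs at Day 7, at least 45.9-fold lower by a floor of 3 UMIs over both Day 7 libraries. *Tbx4*, the hindlimb counterpart of *Tbx5*, was low at both days (a mean of 1.86 CPM at Day 2 and 2.43 CPM at Day 7), as the forelimb label has it. The members that rose were *Irx3* (0.49 ± 0.07), *Tbx15* (0.42 ± 0.08), *Tbx4* (0.39 ± 0.12) and *Snai2* (0.31 ± 0.05). With library totals *Irx3* alone was called higher, and the log2 fold changes of *Tbx15*, *Tbx4* and *Snai2* were 0.13, 0.09 and 0.01.

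HOX genes, which encode position along the limb, fell in 19 and rose in 5 of 35 cases, and in 24 and 3 with library totals and 11 and 2 in thinned cells. In the 5′ part of the HoxD cluster, which patterns the hand, *Hoxd9* fell (log2 fold change -1.05 ± 0.05), *Hoxd10* (-1.03 ± 0.05), *Hoxd11* (-1.45 ± 0.06), *Hoxd12* (-2.07 ± 0.09) and *Hoxd13* (-0.67 ± 0.11). *Hoxd11* was at 152 and 139.8 CPM at Day 2 and 53.6 and 53.4 CPM at Day 7 (edgeR adjusted p = 9.13e-08), with both Day 7 cultures below both Day 2 cultures, as for 7998 of all 18988 genes tested. The 3′ neighbour *Hoxd8* did not pass (0.12 ± 0.05, and -0.17 with library totals). In the HoxA cluster *Hoxa13*, the most distal of its genes, was at 19.9 and 18.3 CPM at Day 2 and 10.99 and 9.94 CPM at Day 7 (-0.87 ± 0.07), *Hoxa9* fell (-0.77 ± 0.06), and *Hoxa10* and *Hoxa11* fell less (-0.41 ± 0.05 and -0.24 ± 0.05), with no call of *Hoxa11* in thinned cells (-0.20). The members that rose included *Hoxb7*, from a mean of 0.790 CPM at Day 2 to 2.12 CPM at Day 7.

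Retinoic acid patterns the limb and drives the death of the tissue between digits. Its pathway was lower in 11 and higher in 7 of 20 genes. *Aldh1a2*, the enzyme that makes retinoic acid and marks interdigital tissue, was at 18.6 and 18.97 CPM at Day 2 and 2.35 and 2.10 CPM at Day 7 (log2 fold change -3.08 ± 0.12, edgeR adjusted p = 9.47e-08). The receptor *Rarb* (-1.98 ± 0.10), the binding protein *Crabp2* (-2.24 ± 0.06) and the degrading enzyme *Cyp26b1* (-1.32 ± 0.06) fell, and *Stra6*, the retinol receptor, was at 2.77 and 2.81 CPM at Day 2 and 0.105 and 0.111 CPM at Day 7. *Rbp4*, a retinol carrier, went the other way, from 13.9 and 13.0 CPM at Day 2 to 120.1 and 119.5 CPM at Day 7 (3.15 ± 0.05), as did *Dhrs3*, which turns retinal back to retinol (0.76 ± 0.05).

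Fibroblast growth factor (FGF) signals keep limb mesenchyme dividing. *Fgf8*, the factor of the ectodermal ridge, was rare at both days (a mean of 0.965 CPM at Day 2 and 0.0674 CPM at Day 7), and the mesenchymal *Fgf10* fell from 4.79 and 3.89 CPM at Day 2 to 2.21 and 2.29 CPM at Day 7 (log2 fold change -0.95 ± 0.11). *Fgf18* (-1.55 ± 0.11), *Fgf13* (-1.31 ± 0.09) and *Fgf9* (-0.56 ± 0.10) fell, and *Fgf7* (1.64 ± 0.06), *Fgf2* (0.67 ± 0.06) and the stress-induced *Fgf21* (2.87 ± 0.20) rose. Known readouts of FGF signalling were among the genes that fell: 11 of 17 receptors and feedback genes were lower and 3 higher, and 9 and 6 in thinned cells. *Dusp6*, a phosphatase induced by FGF, was at 47.3 and 45.4 CPM at Day 2 and 14.2 and 13.5 CPM at Day 7 (-1.74 ± 0.06, edgeR adjusted p = 2.79e-08), *Spry4* at 14.7 and 14.0 CPM at Day 2 and 4.74 and 4.61 CPM at Day 7 (-1.62 ± 0.06) and *Etv4* at 11.7 and 10.8 CPM at Day 2 and 4.45 and 4.49 CPM at Day 7 (-1.33 ± 0.07). *Spry1* and *Spry2* fell (-0.93 ± 0.08 and -1.10 ± 0.11). The receptors themselves did not follow, since *Fgfr1* (0.06 ± 0.05) and *Fgfr2* (0.07 ± 0.05) did not pass and *Fgfr3*, *Fgfr4* and *Fgfrl1* rose. The log2 fold changes of *Fgfr1* and *Fgfr2* were -0.24 and -0.23 with library totals and 0.43 and 0.47 in thinned cells.

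Bone morphogenetic protein (BMP) ligands divided into 6 that rose and 7 that fell, of 17. With library totals 5 were higher and 8 lower and in thinned cells 4 and 3, and the median of 0.49 with TMM factors was 0.19 with library totals and -0.14 in thinned cells. *Bmp4* fell from 75.2 and 71.2 CPM at Day 2 to 45.7 and 47.1 CPM at Day 7 (log2 fold change -0.66 ± 0.05), *Bmp7* from 20.8 and 22.2 CPM at Day 2 to 7.48 and 7.25 CPM at Day 7 (-1.55 ± 0.10) and *Gdf11* (-1.55 ± 0.08), and *Bmp3* rose from 1.63 and 1.74 CPM at Day 2 to 9.43 and 10.5 CPM at Day 7 (2.57 ± 0.12), as did *Bmp6* (2.91 ± 0.20) and *Gdf15* (2.504 ± 0.21). Receptors, SMADs and target genes were lower in 16 and higher in 2 of 20 cases. The immediate targets *Id1*, *Id2*, *Id3* and *Id4* all fell, *Id1* from 538 and 476 CPM at Day 2 to 189 and 204 CPM at Day 7 (-1.37 ± 0.07, edgeR adjusted p = 5.28e-07), the others less (-0.52 ± 0.05, -0.55 ± 0.08 and -0.62 ± 0.06), and the feedback inhibitors *Smad6* and *Smad7* fell (-0.60 ± 0.05 and -1.09 ± 0.06). Of the receptors, *Bmpr1b* (-1.18 ± 0.07) and *Acvr2b* (-2.24 ± 0.07) fell most. The antagonists were mixed, 9 higher and 5 lower with TMM factors and 7 higher and 9 lower with library totals. *Grem1* (1.47 ± 0.05) and *Chrdl1* (1.37 ± 0.08) rose, *Fst* (-1.12 ± 0.07) and *Sostdc1* (-1.90 ± 0.12) fell, and *Nog* was at 42.6 and 39.1 CPM at Day 2 and 46.8 and 47.1 CPM at Day 7 (0.20 ± 0.05 with TMM factors and -0.09 with library totals).

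In the transforming growth factor beta pathway 10 genes were higher and 7 lower of 22, with a median of 0.18. With library totals 9 were higher and 10 lower (median -0.12), and in thinned cells 12 and 7 (median 0.76). *Ltbp2*, which anchors microfibrils, rose from 4.96 and 4.22 CPM at Day 2 to 39.99 and 36.0 CPM at Day 7 (log2 fold change 3.05 ± 0.09), *Tgfbr3* by 2.15 ± 0.09 log2 units, the ligand *Tgfb1* by 1.05 ± 0.08 log2 units and *Inhba* by 1.24 ± 0.07 log2 units. *Tgfb2* fell (-0.45 ± 0.05), and the repressors *Skil* and *Tgif2* (-1.153 ± 0.05 and -1.23 ± 0.06).

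WNT ligands were higher in 3 and lower in 7 of 14 cases, and in 2 and 11 with library totals and 1 and 3 in thinned cells. *Wnt5a*, which directs limb outgrowth, fell from 76.3 and 82.7 CPM at Day 2 to 42.7 and 39.96 CPM at Day 7 (log2 fold change -0.94 ± 0.07), and *Wnt10a* rose from 0.174 and 0.242 CPM at Day 2 to 2.28 and 2.22 CPM at Day 7 (3.45 ± 0.28). Of 16 feedback targets and R-spondins 10 were lower and 4 higher, and 5 and 3 in thinned cells. *Axin2*, a target of β-catenin, fell from 10.2 and 12.5 CPM at Day 2 to 4.07 and 4.23 CPM at Day 7 (-1.46 ± 0.10, edgeR adjusted p = 2.75e-06), *Lef1* (-1.19 ± 0.09) and *Nkd2* (-1.80 ± 0.10), and *Nkd1* rose (0.56 ± 0.05). The secreted antagonists moved in both directions and over a wide range. *Dkk1*, an inhibitor that is high in the distal limb, fell from 51.7 and 39.5 CPM at Day 2 to 3.09 and 3.03 CPM at Day 7 (-3.90 ± 0.22), while *Frzb*, an antagonist of articular and prehypertrophic cartilage, rose from 18.8 and 19.1 CPM at Day 2 to 60.1 and 55.1 CPM at Day 7 (1.604 ± 0.06) and *Sfrp5* from 0.208 and 0.164 CPM at Day 2 to 12.2 and 12.4 CPM at Day 7 (6.03 ± 0.11). The R-spondins *Rspo3* (1.32 ± 0.06) and *Rspo2* (1.31 ± 0.15), which raise WNT signalling, were higher, and of the receptors *Fzd9* (1.84 ± 0.06) and *Fzd6* (1.84 ± 0.09) rose and *Fzd3* (-1.13 ± 0.05) fell.

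The direction of hedgehog genes depended on the setting, with 7 higher and 7 lower of 17 with TMM factors, 5 higher and 9 lower with library totals and 8 higher and 1 lower with every cell thinned to 1000 UMIs. Their median was -0.04, -0.33 and 0.62 in the same order. Beside *Ihh*, the releasing factor *Scube2* rose (log2 fold change 1.82 ± 0.12), the target and receptor *Ptch1* did not pass (0.17 ± 0.10, with -0.12 by library totals and 0.62 in thinned cells), and the factors *Gli1* (-0.43 ± 0.14) and *Gli3* (-0.76 ± 0.06) fell. The call of *Gli1* was lost without Day 2 replicate B (-0.29) or Day 7 replicate A (-0.37). In the Notch pathway 12 genes were lower and 4 higher of 23, and 6 and 5 in thinned cells. The receptor *Notch3* fell from 14.98 and 15.9 CPM at Day 2 to 4.68 and 4.17 CPM at Day 7 (-1.80 ± 0.09), and the targets *Hey1* (-0.75 ± 0.08) and *Hes1* (-0.48 ± 0.10) fell, *Hey1* without a call in thinned cells (-0.23). *Dlk1*, a non-canonical ligand that is imprinted, rose from 212 and 213 CPM at Day 2 to 892 and 934 CPM at Day 7 (2.10 ± 0.16, edgeR adjusted p = 3.64e-06), and its relative *Dlk2* by 1.83 ± 0.10 log2 units. The insulin-like growth factor (IGF) system was higher in 15 and lower in 3 of 18 cases. *Igf1* was at 33.4 and 38.3 CPM at Day 2 and 98.5 and 107 CPM at Day 7 (1.52 ± 0.08) and *Igf2* at 1100.1 and 1162 CPM at Day 2 and 2050.0 and 1967 CPM at Day 7 (0.83 ± 0.07). The binding proteins *Igfbp3* (1.91 ± 0.09), *Igfbp6* (3.88 ± 0.17) and *Igfbp7* (1.64 ± 0.13) and the protease *Pappa* (1.76 ± 0.06) rose, and the receptor *Igf1r* fell (-0.34 ± 0.05), with a log2 fold change of 0.03 in thinned cells.

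Skeletal muscle genes fell from Day 2 to Day 7, and the Day 7 cultures differed in how far. Muscle cells do not arise from limb mesenchyme but from precursors that migrate into the limb bud, so a dissected bud carries some of them. In sums over whole cultures, fewer cells of a type and less RNA per cell cannot be told apart. Of 16 myogenic factors 14 were lower and 2 higher, and 9 and 2 in thinned cells. *Myod1*, which commits cells to muscle, was at 16.2 and 11.8 CPM at Day 2 and 1.30 and 0.332 CPM at Day 7 (log2 fold change -4.09 ± 0.48, edgeR adjusted p = 7.01e-05). *Myog*, which starts differentiation, was at 39.6 and 27.1 CPM at Day 2 and 3.45 and 0.785 CPM at Day 7 (-3.97 ± 0.60). Day 7 replicate A stood above replicate B for both genes, and both stood below the Day 2 cultures. *Pax7*, the factor of muscle stem cells, had 261 and 242 UMIs at Day 2 and 0 and 0 UMIs at Day 7, at least 148-fold lower by the floor of 3 UMIs over both Day 7 libraries, and *Mymx*, which fuses myoblasts, fell from 14.5 and 9.54 CPM at Day 2 to 1.80 and 0.469 CPM at Day 7. *Six4* (-0.86 ± 0.06), which is not particular to muscle, fell less, and *Eya1* rose (1.77 ± 0.11).

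28 of 41 sarcomere and excitation genes were lower and 2 higher. *Actc1*, the actin of embryonic muscle, was at 215 and 149 CPM at Day 2 and 20.7 and 5.82 CPM at Day 7 (log2 fold change -3.77 ± 0.77, edgeR adjusted p = 0.00211). *Ttn*, the spring of the sarcomere, was at 116 and 85.7 CPM at Day 2 and 10.3 and 10.2 CPM at Day 7 (-3.31 ± 0.37) and *Neb*, which measures its thin filament, at 36.1 and 27.4 CPM at Day 2 and 3.56 and 0.954 CPM at Day 7 (-3.80 ± 0.43). Members with a wide spread between the Day 7 replicates included *Mylpf*, a light chain of fast muscle, which was at 124 and 85.7 CPM at Day 2 and 54.9 and 10.5 CPM at Day 7 and did not pass (-1.68 ± 0.70, edgeR adjusted p = 0.0583), and *Tnnc2* was at 33.2 and 24.7 CPM at Day 2 and 15.4 and 2.42 CPM at Day 7 and did not pass either (edgeR adjusted p = 0.0766). Both were called lower with library totals (-1.97 and -1.98), in thinned cells (-1.17 and -0.97) and without Day 7 replicate A (-3.31 and -3.57). *Tnnt1* fell from 126 and 108 CPM at Day 2 to 19.99 and 4.75 CPM at Day 7 (-3.24 ± 0.53). *Myom1* (1.79 ± 0.09) and *Tpm2* (0.46 ± 0.08) were the members that rose. Of these, *Tpm2* is also a member of the smooth-muscle-type list below and had no call by library totals (0.17). Without Day 7 replicate A 37 members were called lower, and without Day 7 replicate B 25.

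Of the 37 promoter windows of sarcomere genes in the RefSeq table, 48.6% held CAGCTG, an E-box form that MYOD1 and MYOG are known to bind, against 13.0% of all windows, read on both strands. None of the 10 windows of the myogenic factors held it. The window of *Chrna1*, a subunit of the muscle acetylcholine receptor that fell from 12.2 and 8.73 CPM at Day 2 to 2.97 and 1.20 CPM at Day 7 (log2 fold change -2.32 ± 0.38), is shown because it holds 2 copies, in capitals and starting 92 and 44 bases before the annotated start.
*Chrna1* (chr2:73580339-73580588, minus strand): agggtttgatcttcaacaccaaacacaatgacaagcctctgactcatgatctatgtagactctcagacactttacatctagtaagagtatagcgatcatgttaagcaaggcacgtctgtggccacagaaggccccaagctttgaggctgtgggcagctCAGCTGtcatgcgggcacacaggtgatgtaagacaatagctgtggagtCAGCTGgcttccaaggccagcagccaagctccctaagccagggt
A match of letters in a window is a description and shows no binding.

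Smooth-muscle-type genes, which fibroblasts in culture also express, moved less by comparison, with a median log2 fold change of -0.17. Of the 25 genes 3 were called at least 2-fold lower and 1 at least 2-fold higher. *Csrp2* fell most among members with at least 5 CPM at the higher day. *Acta2* was at 1642 and 1228 CPM at Day 2 and 1333 and 1452 CPM at Day 7 (log2 fold change -0.04 ± 0.12, edgeR adjusted p = 0.772) and *Cnn1* at 113 and 103 CPM at Day 2 and 110.0 and 115 CPM at Day 7 (0.06 ± 0.07), and neither passed. The log2 fold change of *Cnn1* was -0.24 with library totals and -0.04 in thinned cells, and with every deposited barcode it was called higher (0.39). *Acta2* was called lower with library totals (-0.34), in thinned cells (-0.27) and without Day 2 replicate B (-0.24), and its log2 fold change was 0.19 without Day 2 replicate A. *Tagln* fell (-0.33 ± 0.08), without a call when Day 7 replicate A was left out (-0.27), and *Tpm1* (-0.92 ± 0.08), while *Actg2* rose by 1.25 ± 0.11 log2 units. Of the 25 genes 6 were higher and 13 lower, and with library totals 3 and 19. Targets of YAP and TAZ, which respond to stretch, were higher in 12 and lower in 5 of 23 cases, and in 8 and 10 with library totals.

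**Figure D3:**
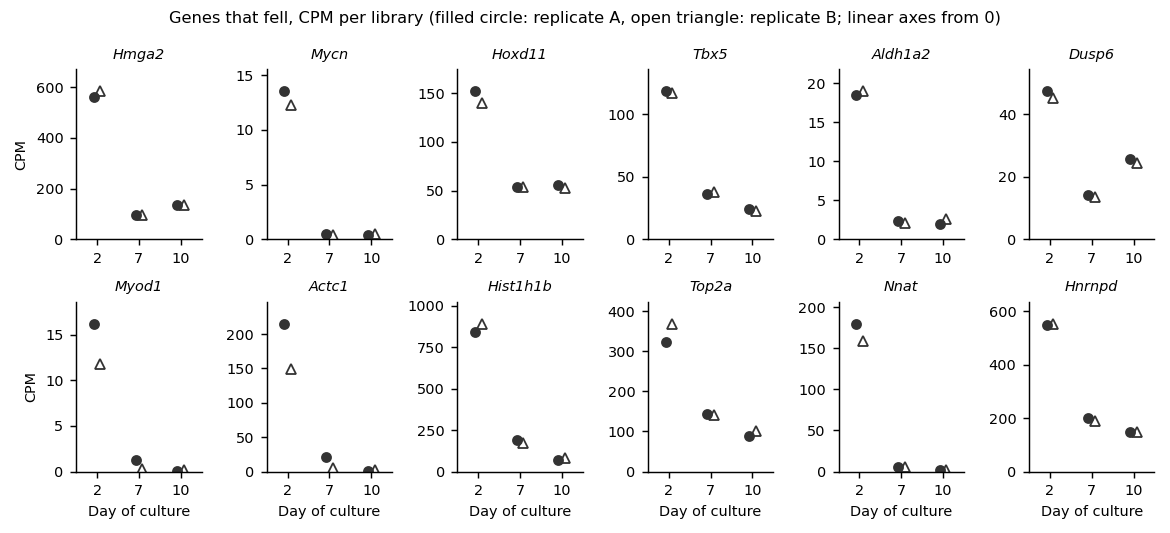
CPM of 12 genes that fell between Day 2 and Day 7 in each library (filled circles replicate A, open triangles replicate B), with the 2 Day 10 libraries as a last column for orientation and each axis starting at 0. *Myod1* and *Actc1* are the plotted genes whose Day 7 replicates stand apart, at 1.30 and 0.332 CPM and at 20.7 and 5.82 CPM.

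Mitotic genes fell throughout the list. All 50 mitosis genes tested were lower at Day 7, with a median log2 fold change of -1.30, and their summed level went from 4061 and 4163 CPM at Day 2 to 1722 and 1781 CPM at Day 7. This holds for the 50 members under the 17 alternative settings as well. *Mki67*, the standard marker of cycling cells, was at 181 and 185 CPM at Day 2 and 84.2 and 77.8 CPM at Day 7 (log2 fold change -1.18 ± 0.07, edgeR adjusted p = 6.94e-07). *Top2a*, which untangles chromosomes, was at 323 and 368 CPM at Day 2 and 145 and 141 CPM at Day 7 (-1.27 ± 0.09) and *Cdk1*, the kinase that starts mitosis, at 135 and 131 CPM at Day 2 and 71.7 and 76.3 CPM at Day 7 (-0.84 ± 0.05). These genes thus fell by part of their Day 2 level and stayed well above detection at Day 7. The motor proteins *Kif15* (-1.82 ± 0.07), *Kif2c* (-1.71 ± 0.07) and *Cenpe* (-1.71 ± 0.06) and the checkpoint kinase *Bub1* (-1.752 ± 0.08) fell most among members with at least 5 CPM, and the spindle motor *Kif11* was at 58.0 and 61.9 CPM at Day 2 and 21.2 and 20.3 CPM at Day 7 (-1.53 ± 0.07).

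DNA replication genes were lower in 47 and higher in 1 of 49 cases, with a median of -1.01. The helicase subunits from *Mcm2* (log2 fold change -0.92 ± 0.07) to *Mcm7* (-0.92 ± 0.07) all fell, *Mcm4* most (-1.502 ± 0.05), and *Pcna* fell from 100.2 and 102 CPM at Day 2 to 63.8 and 62.2 CPM at Day 7 (-0.68 ± 0.05). *E2f1*, which switches these genes on, was the exception with a rise of 0.22 ± 0.06, and its log2 fold change was -0.08 with library totals. Replication-dependent histones, whose mRNA is made in S phase, were lower in 54 and higher in 4 of 62 cases and went from 4811 and 5791 CPM at Day 2 to 1608 and 1521 CPM at Day 7 in sum. *Hist1h1b* was at 838 and 889.6 CPM at Day 2 and 188 and 171 CPM at Day 7 (-2.26 ± 0.09). These transcripts carry no poly(A) tail as a rule and have near-identical copies, so capture and assignment of single genes are uncertain.

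The cell cycle genes homology region, TTTGAA, is an element that mitotic genes are known to carry close to their start. It was present, on either strand, in 39.5% of 43 promoter windows of mitosis genes, against 16.0% of all windows and 14.3% of the 49 windows of replication genes. CCAAT, the box bound by NF-Y, was in 69.8% and 59.2% of the windows of these lists and in 33.9% of all windows. The windows of *Top2a* and *Kif11* are shown with TTTGAA or its reverse complement in capitals, because both have a copy close to the start, at 23 and 19 bases before it, and *Top2a* has another at 179 bases.
*Top2a* (chr11:99024190-99024439, minus strand): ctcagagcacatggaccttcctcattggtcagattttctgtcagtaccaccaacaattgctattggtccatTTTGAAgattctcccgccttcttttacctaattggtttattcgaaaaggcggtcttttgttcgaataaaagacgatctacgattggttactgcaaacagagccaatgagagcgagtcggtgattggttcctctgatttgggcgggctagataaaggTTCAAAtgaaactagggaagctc
*Kif11* (chr19:37376132-37376381, plus strand): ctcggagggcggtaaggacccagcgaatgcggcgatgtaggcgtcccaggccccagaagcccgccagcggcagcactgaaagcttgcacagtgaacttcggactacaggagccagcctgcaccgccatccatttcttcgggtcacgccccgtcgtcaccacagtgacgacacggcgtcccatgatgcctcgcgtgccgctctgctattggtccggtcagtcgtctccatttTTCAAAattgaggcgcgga

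Inhibitors of the cycle and targets of p53 were higher in 15 and lower in 4 of 25 cases, and higher in 10 and lower in 10 with library totals, with 7 lower without Day 2 replicate B. *Cdkn1a*, which encodes p21, was at 157 and 102 CPM at Day 2 and 264 and 262 CPM at Day 7 (log2 fold change 1.02 ± 0.16), *Cdkn2a* at 6.21 and 3.81 CPM at Day 2 and 24.1 and 25.04 CPM at Day 7 (2.29 ± 0.17) and *Cdkn2c* at 3.90 and 3.79 CPM at Day 2 and 12.6 and 13.8 CPM at Day 7 (1.78 ± 0.07). *Cdkn1c*, an imprinted inhibitor of chondrocyte growth, rose by 0.38 ± 0.08 log2 units, and its call was lost with library totals (0.09) and in thinned cells (0.05). Genes of the fetal growth programme around LIN28 fell in 10 and rose in 1 of 11 cases, with a median of -1.94. *Hmga2*, a chromatin protein of embryonic mesenchyme that the microRNA let-7 represses, was at 562 and 584 CPM at Day 2 and 95.1 and 95.3 CPM at Day 7 (-2.59 ± 0.06, edgeR adjusted p = 4.08e-09). *Igf2bp1*, *Igf2bp2* and *Igf2bp3*, which bind growth mRNAs, fell (-1.94 ± 0.06, -0.76 ± 0.05 and -1.34 ± 0.05), and *Lin28b* was at 2.43 and 2.38 CPM at Day 2 and 0.125 and 0.127 CPM at Day 7.

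Imprinted growth genes were divided, with 17 higher and 9 lower of 28, and 11 and 10 with library totals. The neighbours of the Dlk1 and Meg3 locus on chromosome 12 rose together, *Meg3* from 555 and 614 CPM at Day 2 to 2338 and 2582 CPM at Day 7 (log2 fold change 2.07 ± 0.09), *Rian* by 1.56 ± 0.08 log2 units and *Mirg* by 1.73 ± 0.08 log2 units beside *Dlk1*, and *Rtl1* by 0.63 ± 0.22 log2 units. The call of *Rtl1* was lost with library totals (0.33), by the DESeq2 Wald test (0.61), with every deposited barcode (0.40) and in thinned cells (0.70). It was also lost without Day 2 replicate A (0.41) or Day 7 replicate A (0.39). In the H19 and Igf2 domain *H19* rose by 0.56 ± 0.07 log2 units beside *Igf2*. *Zim1* and *Plagl1* rose by 2.76 ± 0.09 and 1.44 ± 0.07 log2 units, and *Peg3*, the neighbour of *Zim1*, by 0.74 ± 0.06 log2 units. *Nnat*, an imprinted gene of developing tissue, had one of the 15 largest falls among genes with at least 20 CPM at the higher day, from 179.8 and 159 CPM at Day 2 to 5.15 and 5.19 CPM at Day 7 (-5.04 ± 0.09, edgeR adjusted p = 2.70e-09). *Asb4* (-2.19 ± 0.05), *Phlda2* (-1.153 ± 0.05) and *Slc38a4* (-1.11 ± 0.06) fell.

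Glycolysis genes were higher in 23 of 30 cases and lower in 4, and their sum went from 4096 and 3820.0 CPM at Day 2 to 7321 and 7788 CPM at Day 7. Cartilage has no vessels, and chondrocytes are known to live on glycolysis under low oxygen. *Pgk1* was at 329.5 and 304 CPM at Day 2 and 766 and 841 CPM at Day 7 (log2 fold change 1.34 ± 0.07), *Aldoa* at 399 and 380.4 CPM at Day 2 and 882 and 932 CPM at Day 7 (1.22 ± 0.06) and *Ldha* at 655 and 625 CPM at Day 2 and 1093 and 1156 CPM at Day 7 (0.81 ± 0.07). Of the glucose transporters *Slc2a1* rose (1.27 ± 0.05) and *Slc2a3* fell (-0.54 ± 0.07), without a call in thinned cells (-0.42). The kinases *Hk2* (1.37 ± 0.17) and *Pfkp* (2.45 ± 0.06) and the lactate exporter *Slc16a3* (2.45 ± 0.06) rose, and *Pdk3*, which restrains the entry of pyruvate into mitochondria, fell (-0.32 ± 0.05). *Ldhb*, the subunit that favours lactate use, fell from 179 and 161 CPM at Day 2 to 71.4 and 76.0 CPM at Day 7 (-1.20 ± 0.06, edgeR adjusted p = 4.84e-07), so the pair of lactate dehydrogenase subunits moved in opposite directions.

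Hypoxia-response genes were higher in 21 and lower in 3 of 26 cases, with a median of 1.06. *Car9*, a carbonic anhydrase used as a marker of low oxygen, was at 0.391 and 0.430 CPM at Day 2 and 31.8 and 39.3 CPM at Day 7 (log2 fold change 6.44 ± 0.13, edgeR adjusted p = 3.54e-09), and *Ndrg1* rose from 1.34 and 1.02 CPM at Day 2 to 17.3 and 18.999 CPM at Day 7. *Bnip3* was at 51.8 and 56.8 CPM at Day 2 and 239 and 270.2 CPM at Day 7 (2.23 ± 0.07) and *Higd1a* at 282 and 269 CPM at Day 2 and 1178 and 1298 CPM at Day 7 (2.17 ± 0.07). *Ndufa4l2*, which lowers the activity of mitochondrial complex I under low oxygen, was outside the list and among the 15 largest rises, at 1.07 and 0.662 CPM at Day 2 and 219 and 275 CPM at Day 7 (8.14 ± 0.20). The sensor gene *Egln1* rose by 0.93 ± 0.06 log2 units and *Egln3* did not pass (0.32 ± 0.13). *Kdm3a* (-0.50 ± 0.06), *Mxi1* (-0.73 ± 0.05) and *Ddit4* (-0.19 ± 0.07), also known as targets of the hypoxia factor HIF1, fell. The call of *Kdm3a* was lost in thinned cells (-0.30). The call of *Ddit4* was lost without Day 2 replicate A (-0.09) or Day 7 replicate A (-0.12).

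The core letters ACGTG of the hypoxia element were in 55.2% of the 29 promoter windows of hypoxia-response genes and in 37.5% of the 48 windows of glycolysis genes, against 16.6% of all windows. These shares include windows of members that fell or were not called, so they describe the lists and not the change between days. Windows of the glycolytic *Ldha* and *Pgk1* and of the collagen hydroxylase *P4ha1*, which all rose, are printed with the core on either strand in capitals. The *Ldha* window holds it at 3 places, 2 of them as the palindrome CACGTG, which is also an E-box.
*Ldha* (chr7:46845554-46845803, plus strand): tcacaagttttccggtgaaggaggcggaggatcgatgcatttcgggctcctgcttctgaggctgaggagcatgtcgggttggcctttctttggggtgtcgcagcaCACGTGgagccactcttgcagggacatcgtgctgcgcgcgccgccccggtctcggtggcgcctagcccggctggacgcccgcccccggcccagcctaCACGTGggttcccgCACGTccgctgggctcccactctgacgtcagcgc
*Pgk1* (chrX:106186850-106187099, plus strand): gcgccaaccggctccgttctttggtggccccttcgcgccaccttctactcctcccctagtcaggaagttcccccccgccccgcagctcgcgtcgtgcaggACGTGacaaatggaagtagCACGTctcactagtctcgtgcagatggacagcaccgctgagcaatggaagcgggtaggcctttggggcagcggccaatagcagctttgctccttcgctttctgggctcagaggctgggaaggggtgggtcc
*P4ha1* (chr10:59323046-59323295, plus strand): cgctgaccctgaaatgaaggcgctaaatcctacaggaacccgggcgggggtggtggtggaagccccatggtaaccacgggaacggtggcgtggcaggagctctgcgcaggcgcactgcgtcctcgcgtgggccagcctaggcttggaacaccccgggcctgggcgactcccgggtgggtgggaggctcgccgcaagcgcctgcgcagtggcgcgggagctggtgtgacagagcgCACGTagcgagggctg

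All 13 mRNAs encoded by mitochondrial DNA were higher, from *mt-Nd4l* (log2 fold change 0.44 ± 0.10) to *mt-Nd6* (1.89 ± 0.21), and their sum went from 17144 and 20639 CPM at Day 2 to 39578 and 39426 CPM at Day 7. With library totals 12 of them were called higher, *mt-Nd4l* being the exception (0.15). As a share of all UMIs of a library, a measure also used for cell quality, the same mitochondrial UMIs were 1.94% and 2.38% at Day 2 and 3.72% and 3.65% at Day 7. This share is the summed level before TMM scaling and not a separate measurement. The part of cell quality in the rise was not tested. Nuclear genes of the respiratory chain were divided, with 37 higher and 13 lower of 85 with TMM factors and 14 higher and 45 lower with library totals, and 9 and 39 in thinned cells, as were genes of the citric acid cycle and fatty acid oxidation (15 higher and 6 lower of 32, and 8 and 17 with library totals and 11 and 11 in thinned cells). Without Day 7 replicate A 8 respiratory chain genes were lower, and 3 of the citric acid cycle and fatty acid oxidation were lower when either Day 7 replicate was left out. Cholesterol synthesis was lower in 18 and higher in 4 of 25 genes, and *Hmgcs1*, an early enzyme of the pathway, fell from 121 and 124 CPM at Day 2 to 60.8 and 58.2 CPM at Day 7 (-1.04 ± 0.05, edgeR adjusted p = 2.27e-07).

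Ribosomal protein genes were higher in 77 of 82 cases and lower in 0 with TMM factors, a modest shift with a median of 0.50. With library totals 45 were called higher and 2 lower, and with every cell thinned to 1000 UMIs 16 were called higher and 5 lower, with a median of 0.08. Ribosome biogenesis did not rise with them, 9 genes being higher and 15 lower of 41, and 3 and 32 with library totals, 3 and 15 in thinned cells and 7 and 9 without Day 7 replicate B. Splicing factors fell in 49 of 54 cases with a median of -0.61, and *Sf3b5* was the member called higher (log2 fold change 0.39 ± 0.06). That exception depended on the setting, since no member was called higher with library totals, where *Sf3b5* was at 0.10, or in thinned cells, where it was at -0.03. *Hnrnpd* was at 549.6 and 552 CPM at Day 2 and 199.97 and 188 CPM at Day 7 (-1.51 ± 0.06, edgeR adjusted p = 6.98e-08), and *Hnrnpa3* (-1.21 ± 0.08) and *Srsf7* (-0.92 ± 0.07) fell.

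Chromatin regulators were lower in 30 and higher in 7 of 40 cases. *Ezh2*, the methyltransferase of polycomb complex 2, fell from 199.9 and 201 CPM at Day 2 to 56.1 and 54.2 CPM at Day 7 (log2 fold change -1.86 ± 0.05, edgeR adjusted p = 1.24e-08), while its less active relative *Ezh1* rose (0.68 ± 0.07). Among polycomb readers *Cbx2* (-2.59 ± 0.08) and *Cbx8* (-0.48 ± 0.06) fell and *Cbx6* (1.32 ± 0.06) rose. *Dnmt1*, which copies DNA methylation at replication, fell (-1.41 ± 0.06). Proteasome subunits were lower in 21 and higher in 4 of 38 cases, in 34 and 3 with library totals and in 30 and 2 in thinned cells, none lower by 2-fold or more with TMM factors, and *Psmd1* had the largest fall (-0.55 ± 0.05). The immunoproteasome subunits *Psmb8*, *Psmb9* and *Psmb10* were higher (3.34 ± 0.16, 1.62 ± 0.19 and 1.29 ± 0.05).

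Nuclear long non-coding RNAs were higher in 12 and lower in 2 of 15 cases. *Neat1*, the scaffold of paraspeckles, was at 36.0 and 44.3 CPM at Day 2 and 249 and 244 CPM at Day 7 (log2 fold change 2.62 ± 0.10), *Gas5* at 638 and 622 CPM at Day 2 and 2724 and 2819 CPM at Day 7 (2.14 ± 0.07) and *Malat1* at 11774 and 13404 CPM at Day 2 and 19569 and 20511 CPM at Day 7 (0.67 ± 0.11). *Gas5* and *Snhg12* (2.81 ± 0.06) are host genes of small nucleolar RNAs. *Gm42418*, which overlaps ribosomal RNA sequence, was at 5298 and 12991 CPM at Day 2 and 36056 and 37862 CPM at Day 7. Removal of the genes that overlap ribosomal RNA, with mitochondrial and histone genes, before the fit gave 6751 genes called higher and 6587 lower.

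Lysosome and autophagy genes were higher in 37 of 40 cases and lower in 0, with a median of 0.96 and 28 higher and 3 lower with library totals. *Ctsd* was at 62.5 and 58.6 CPM at Day 2 and 204 and 206 CPM at Day 7 (log2 fold change 1.76 ± 0.06, edgeR adjusted p = 2.70e-08), *Ctsl* at 221 and 175 CPM at Day 2 and 509.5 and 524 CPM at Day 7 (1.38 ± 0.10) and the acid glucosidase *Gaa* at 13.7 and 12.9 CPM at Day 2 and 61.0 and 56.3 CPM at Day 7 (2.14 ± 0.06). *Tfeb*, the factor that coordinates lysosome genes, rose by 0.97 ± 0.08 log2 units. In the oxidative stress list 17 of 28 genes were higher and 5 lower, and 14 and 8 with library totals. The rises included *Hmox1* (1.44 ± 0.11), *Slc7a11* (1.95 ± 0.09) and the extracellular superoxide dismutase *Sod3*, from 0.0340 and 0.0290 CPM at Day 2 to 10.8 and 9.68 CPM at Day 7, whereas *Gsta4* fell from 66.2 and 58.5 CPM at Day 2 to 5.74 and 7.10 CPM at Day 7 (-3.28 ± 0.11). Cytosolic chaperones leaned the other way, 7 higher and 12 lower of 24, and 3 and 16 with library totals, with falls in the chaperonin subunits *Cct3* (-0.47 ± 0.05) and *Cct6a* (-0.50 ± 0.05) and rises in *Cryab* (1.07 ± 0.15) and *Bag3* (1.25 ± 0.06).

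Immune genes that mesenchymal cells can express were mostly higher, 22 of 24 genes of complement, acute phase and antigen presentation, with none lower. The class I genes *H2-K1* (18.997 and 15.7 CPM at Day 2 and 68.9 and 69.9 CPM at Day 7, 1.9997 ± 0.09) and *H2-D1* (9.56 and 7.43 CPM at Day 2 and 32.3 and 35.7 CPM at Day 7, 1.999 ± 0.11) and *B2m* (log2 fold change 0.81 ± 0.07) rose, as did *C4b*, from 0.0255 and 0.0193 CPM at Day 2 to 4.61 and 4.65 CPM at Day 7. *Lcn2* had 1 and 1 UMIs at Day 2 and 501 and 540 UMIs at Day 7. Interferon-stimulated genes were higher in 18 and lower in 3 of 25 cases, and in 8 and 1 in thinned cells, *Ifi27* from 4.86 and 4.04 CPM at Day 2 to 48.1 and 52.1 CPM at Day 7 (3.49 ± 0.09) and *Ifitm3* from 100.4 and 84.5 CPM at Day 2 to 283 and 307 CPM at Day 7 (1.67 ± 0.09), but *Ifitm1*, a gene of early mesenchyme, fell from 14.5 and 12.6 CPM at Day 2 to 2.91 and 4.34 CPM at Day 7 (-1.91 ± 0.18). Chemokines and cytokines were higher in 18 and lower in 2 of 25 cases, with *Cxcl2* at 1.07 and 0.657 CPM at Day 2 and 8.73 and 15.1 CPM at Day 7 and *Csf1*, the growth factor of macrophages and osteoclasts, at 8.21 and 8.11 CPM at Day 2 and 31.0 and 31.0 CPM at Day 7 (1.92 ± 0.05), and *Mdk*, a heparin-binding factor of embryonic tissue, fell from 1103 and 1019 CPM at Day 2 to 268 and 286 CPM at Day 7 (-1.94 ± 0.07). In the RANKL axis 6 of 7 genes were higher, *Tnfsf11* from 1.04 and 0.947 CPM at Day 2 to 2.92 and 2.23 CPM at Day 7 (1.37 ± 0.14) and its decoy *Tnfrsf11b* from 6.74 and 6.84 CPM at Day 2 to 13.3 and 12.3 CPM at Day 7 (0.92 ± 0.06).

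Macrophage markers moved with these genes. 8 of 15 were called higher and none lower, and their sum was 29.3 and 15.9 CPM at Day 2 and 38.05 and 54.9 CPM at Day 7, a range in which the replicates of each day differ. The defining *Tyrobp* was at 4.39 and 3.43 CPM at Day 2 and 7.55 and 11.2 CPM at Day 7 (log2 fold change 1.26 ± 0.21) and *C1qa* at 4.14 and 0.841 CPM at Day 2 and 3.23 and 4.76 CPM at Day 7 (0.66 ± 0.52, edgeR adjusted p = 0.28), and *Ptprc* was at 0.629 and 0.382 CPM at Day 2 and 0.469 and 0.632 CPM at Day 7 and did not pass. *Tyrobp* had no call in thinned cells (0.55). Without Day 2 replicate A *C1qa* was called higher (2.25), and without Day 2 replicate B it was at -0.05. The number of markers called higher was 11 without Day 2 replicate A, 6 without Day 2 replicate B, 6 without Day 7 replicate B and 5 in thinned cells. The part of these cells in the rise of the immune genes was not tested. Osteoclast markers summed to 35.3 and 32.1 CPM at Day 2 and 52.6 and 59.1 CPM at Day 7, and *Ctsk*, which fibroblasts also express, was at 5.13 and 4.35 CPM at Day 2 and 19.9 and 22.5 CPM at Day 7.

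Circadian clock genes were higher in 17 of 18 cases, with a median of 1.08 and 16 of them with library totals. *Nr1d1*, a repressor within the clock, was at 0.659 and 0.701 CPM at Day 2 and 5.47 and 5.24 CPM at Day 7 (log2 fold change 2.98 ± 0.08, edgeR adjusted p = 1.52e-08), and *Npas2* rose from 0.0935 and 0.126 CPM at Day 2 to 1.11 and 1.39 CPM at Day 7. Activators and repressors of the loop rose alike, *Arntl* by 0.96 ± 0.07 log2 units, *Per1* by 0.97 ± 0.07 log2 units, *Per2* by 1.55 ± 0.15 log2 units and *Cry2* by 1.40 ± 0.05 log2 units, and *Cry1* fell (-0.22 ± 0.06), without a call in thinned cells (-0.07) or without Day 7 replicate B (-0.17). The hour of collection is not given in the sources used here, so clock phase and day of culture cannot be told apart. The E-box CACGTG that the clock factors bind was in 28.6% of 21 promoter windows of the list and in 6.02% of all windows. A window of *Per1*, which was at 4.68 and 4.55 CPM at Day 2 and 8.62 and 9.52 CPM at Day 7, is shown with its copy in capitals, 166 bases before the start.
*Per1* (chr11:69098699-69098948, plus strand): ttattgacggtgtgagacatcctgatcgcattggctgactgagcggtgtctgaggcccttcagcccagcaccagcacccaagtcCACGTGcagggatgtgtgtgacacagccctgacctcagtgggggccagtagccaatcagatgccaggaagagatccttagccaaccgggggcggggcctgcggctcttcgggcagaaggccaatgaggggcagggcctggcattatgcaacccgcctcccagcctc

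Of 20 hormone receptors and prostaglandin genes 15 were higher and 2 lower. *Vdr*, the vitamin D receptor, rose from 0.276 and 0.367 CPM at Day 2 to 6.54 and 6.01 CPM at Day 7 (log2 fold change 4.29 ± 0.12) and *Nr3c1*, the glucocorticoid receptor, by 1.05 ± 0.05 log2 units. *Fkbp5*, a common glucocorticoid target, fell (-1.18 ± 0.06). Immediate early genes, which dissociation of cells can induce, were higher in 14 and lower in 10 of 28 cases, with 6 lower in thinned cells and 4 without Day 7 replicate A. *Fos* (-0.40 ± 0.10), *Jun* (-0.61 ± 0.08) and *Egr1* (-0.73 ± 0.07) fell, and *Nr4a1* (1.65 ± 0.06), *Nr4a2* (1.67 ± 0.07) and *Junb* (0.53 ± 0.09) rose. The call of *Fos* was lost without Day 7 replicate A (-0.31). Fat cell genes included *Fabp4*, from 0.391 and 0.730 CPM at Day 2 to 28.9 and 32.2 CPM at Day 7 (5.79 ± 0.19), and *Pparg* (1.17 ± 0.09), while *Ebf1* (-1.40 ± 0.07), *Ebf2* (-2.37 ± 0.24), *Ebf3* (-1.94 ± 0.13) and *Zfp423* (-1.96 ± 0.07), early factors of mesenchyme and fat precursors, fell.

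Of 28 integrin-named genes 15 were higher and 9 lower, and 12 and 3 in thinned cells. The alpha chain *Itga10*, which binds type II collagen in chondrocytes, rose from 0.748 and 0.884 CPM at Day 2 to 24.1 and 21.6 CPM at Day 7 (log2 fold change 4.81 ± 0.09, edgeR adjusted p = 3.04e-09), with *Itga1* (2.22 ± 0.07) and *Itga11* (1.91 ± 0.08), further collagen receptors. *Itga4*, which binds fibronectin and VCAM1, fell from 18.4 and 16.0 CPM at Day 2 to 4.02 and 4.11 CPM at Day 7 (-2.08 ± 0.11). *Cdh2*, N-cadherin, which holds condensing mesenchyme together, fell from 76.0 and 75.5 CPM at Day 2 to 22.7 and 22.7 CPM at Day 7 (-1.74 ± 0.05), while *Cdh11* did not pass (-0.10 ± 0.06), with a call as lower by library totals (-0.40) and a log2 fold change of 0.23 in thinned cells. *Cd9* (2.33 ± 0.09) and the syndecan *Sdc4* (2.16 ± 0.06) rose.

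Eph receptors and ephrins, which sort cells by position in the limb, were lower in 12 and higher in 5 of 21 cases with a median of -0.36, but lower in 7 and higher in 7 in thinned cells, with a median of -0.01. *Epha7* fell from 26.0 and 27.3 CPM at Day 2 to 7.37 and 8.36 CPM at Day 7 (log2 fold change -1.76 ± 0.10), *Epha4* from 51.8 and 47.3 CPM at Day 2 to 25.3 and 24.1 CPM at Day 7 (-1.01 ± 0.07) and the ligand *Efna2* from 34.7 and 32.6 CPM at Day 2 to 8.41 and 8.46 CPM at Day 7 (-1.997 ± 0.06). Axon guidance genes were divided, 16 higher and 21 lower of 46, with 10 and 25 by library totals and 14 and 9 in thinned cells. They included *Robo2* (-1.84 ± 0.05), *Sema3a* (-1.45 ± 0.07) and *Sema6a* (-1.06 ± 0.04) among the falls and *Nrp2* (0.94 ± 0.08) and *Neo1* (0.68 ± 0.07) among the rises. Of 34 gap junction, ion channel and transporter genes 17 were higher and 11 lower. The counts were 15 and 15 with library totals and 17 and 9 in thinned cells. *Panx3*, *Trpv4*, *Aqp1* and *Kcnk2* were among the rises. The falls included the gap junction genes *Gja1* (-0.52 ± 0.06) and *Gjc1* (-1.51 ± 0.05). The potassium channel subunit *Kcnmb4* fell from 38.3 and 35.4 CPM at Day 2 to 3.49 and 3.59 CPM at Day 7 (-3.38 ± 0.06).

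The 15 largest rises and falls among genes with at least 20 CPM included genes of no list. *Cdsn*, which encodes the desmosome protein corneodesmosin of the skin, was at 0.0170 and 0.0338 CPM at Day 2 and 39.2 and 36.2 CPM at Day 7 (log2 fold change 10.53 ± 0.15, edgeR adjusted p = 9.62e-10), the largest rise among genes with at least 20 CPM. The keratinocyte markers *Krt5* and *Krt14* were at 1.27 and 0.348 CPM at Day 2 and 1.74 and 0.664 CPM at Day 7 and at 0.0935 and 0.338 CPM at Day 2 and 3.93 and 0.358 CPM at Day 7, and their part in the rise of *Cdsn* was not tested. The log2 fold change of *Krt5* was 1.79 without Day 2 replicate A and -0.28 without Day 7 replicate A. *Ostn*, which encodes the secreted peptide osteocrin, was at 0.255 and 0.227 CPM at Day 2 and 50.1 and 51.2 CPM at Day 7 (7.71 ± 0.08), *Smpd3*, a sphingomyelinase needed for bone and cartilage mineral, at 0.281 and 0.406 CPM at Day 2 and 43.8 and 41.0 CPM at Day 7 (6.96 ± 0.16), and *Ppp1r1b*, which encodes a phosphatase inhibitor, at 0.123 and 0.169 CPM at Day 2 and 25.8 and 25.9 CPM at Day 7 (7.47 ± 0.10). *Meltf*, melanotransferrin, known from chondrocytes, rose by 5.99 ± 0.12 log2 units. The antisense gene *Dhx58os* rose by 7.73 ± 0.10 log2 units, and whether its reads come from its own strand depends on the counting. Falls outside the lists were the serine kinase *Hunk* (-2.97 ± 0.06), the exchange factor *Ralgps2* (-3.09 ± 0.09), the glycosyltransferase *B3gnt5* (-3.22 ± 0.06) and *Tril* (-2.88 ± 0.11).

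Markers of cells other than mesenchyme were used to see what else the cultures held. Of 10 erythroid markers 9 were lower and 0 higher. *Hbb-y*, an embryonic globin, was at 22.1 and 68.8 CPM at Day 2 and 0 and 0 CPM at Day 7, with 5192 and 14242 UMIs at Day 2 and none at Day 7, and thus at least 5718-fold lower by the floor of 3 UMIs over both Day 7 libraries. *Hba-x* likewise had no UMI at Day 7, and *Hba-a1*, which has a near-identical copy, had 5531 and 7592 UMIs at Day 2 and 2 and 0 UMIs at Day 7. Day 2 replicate B had more globin RNA than replicate A, 129 against 55.7 CPM in sum. Replicate A alone was also above both Day 7 libraries, whose erythroid sums were 0.120 and 0.0949 CPM.

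Endothelial markers were low at both days, 0 higher and 6 lower of 10, and 0 and 3 in thinned cells. The defining *Pecam1* (0.365 and 0.469 CPM at Day 2 and 0.518 and 0.585 CPM at Day 7) and *Kdr* (0.497 and 0.396 CPM at Day 2 and 0.140 and 0.322 CPM at Day 7) stayed under 1 CPM, so the sum of 80.9 and 77.3 CPM at Day 2 and 40.3 and 38.3 CPM at Day 7 rests on *Erg*, *Flt1* and *Egfl7*, of which *Erg* is also a joint gene. The call of *Egfl7* as lower (log2 fold change -0.16 ± 0.06) was lost without Day 2 replicate A (-0.10), Day 7 replicate A (-0.18) or Day 7 replicate B (-0.13), and that of *Kdr* (-0.96 ± 0.33) without Day 2 replicate A (-0.78) or Day 7 replicate A (-0.47). When either of these A replicates was left out, 4 endothelial markers were lower. Schwann cell markers fell in their defining members *Sox10* (0.357 and 0.454 CPM at Day 2 and 0.130 and 0.0738 CPM at Day 7) and *Erbb3* (6.55 and 6.21 CPM at Day 2 and 0.399 and 0.264 CPM at Day 7), and their summed rise came from *S100b* (3.24 and 3.74 CPM at Day 2 and 151 and 156 CPM at Day 7), which chondrocytes also express. Of 14 ectoderm and epithelial markers 8 were lower and 4 higher, and 4 and 2 in thinned cells. *Krt8*, *Krt18* and *Krt19* fell (-1.78 ± 0.24, -1.04 ± 0.16 and -1.745 ± 0.11), and *Epcam* from 2.77 and 2.26 CPM at Day 2 to 0.593 and 0.443 CPM at Day 7. The rises were in *Krt14*, *Krt15* (1.65 ± 0.46), *Trp63* (0.68 ± 0.12) and *Cdh1* (2.13 ± 0.33), none of which reached 5 CPM in any of the 4 libraries, and the call of *Krt14* was lost without Day 2 replicate A (2.67) or Day 7 replicate A (0.76). *Krt15* had no call in thinned cells (0.62). Of 6 pericyte and vascular smooth muscle markers 3 were higher and 1 lower, and 3 and 2 with library totals and 2 and 1 in thinned cells. They were led by *Cspg4*, which rose from 24.9 and 29.6 CPM at Day 2 to 144 and 124 CPM at Day 7 (2.30 ± 0.10) and is also a gene of chondrocytes. *Pdgfrb* was also called higher, and *Notch3* fell. *Rgs5* did not pass (12.2 and 9.18 CPM at Day 2 and 8.73 and 6.33 CPM at Day 7) but was called lower without Day 2 replicate B (-0.70) or Day 7 replicate A (-0.75). Of 8 neuron markers 6 were lower and 2 higher, with a median of -1.29, and 3 and 0 in thinned cells. *Elavl4* (-2.22 ± 0.18), *Nefl* (-3.72 ± 0.40) and *Tubb3* (-1.13 ± 0.14) were among the falls, and the rises were *Prph* (2.32 ± 0.16) and *Stmn2*, which other cells also express and which was at 14.3 and 10.2 CPM at Day 2 and 19.2 and 20.4 CPM at Day 7 (0.69 ± 0.19). Of these 8 markers *Prph* alone was called higher with library totals. Melanocyte markers summed to 10.1 and 10.04 CPM at Day 2 and 8.72 and 9.79 CPM at Day 7.

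**Figure D4:**
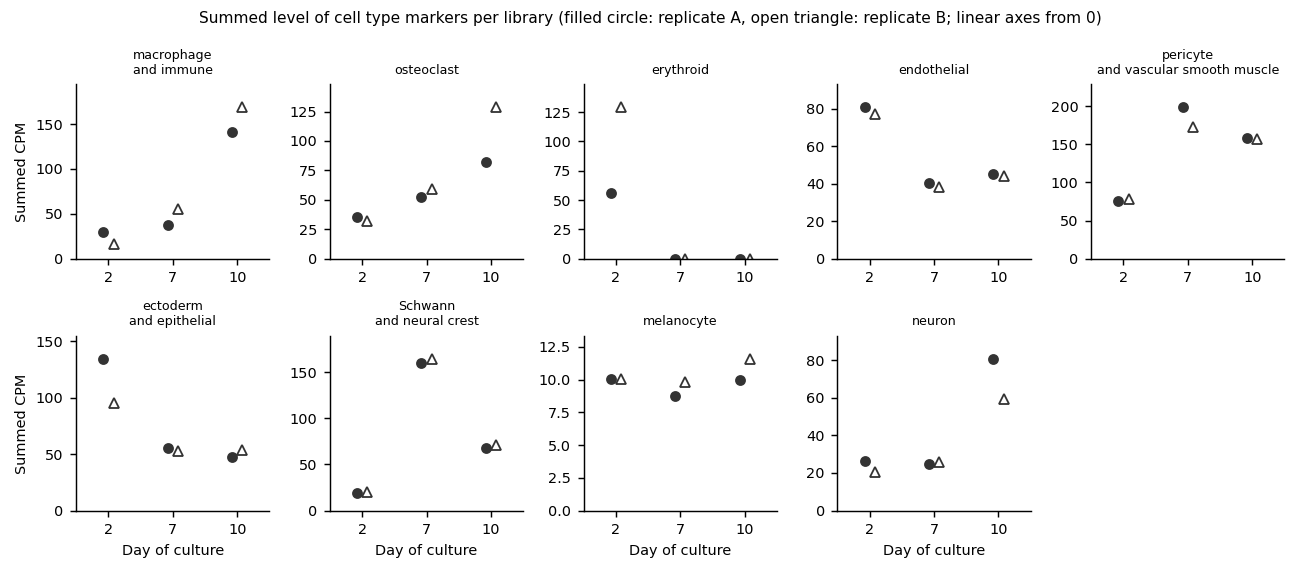
Summed CPM of the markers of 9 cell types in each library, including markers too rare to be tested (filled circles replicate A, open triangles replicate B, Day 10 libraries for orientation, axes from 0). Erythroid markers are near 0 at Day 7, macrophage markers differ between replicates of a day, and the rise of the Schwann panel comes from *S100b* at 3.24 and 3.74 CPM at Day 2 and 151 and 156 CPM at Day 7.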

How the data were processed

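Whole cultures were profiled by droplet single-cell RNA sequencing (10x Genomics 3′ chemistry) in 2 libraries each at Day 2, Day 7 and Day 10. The authors deposited unnormalized UMI counts per gene and barcode, made by them with Cell Ranger 6.1.2 (with STAR) on GRCm38/mm10. The submitters' processing notes also name Seurat 4.1.0. Here UMIs were summed per library over barcodes passing 1000 UMIs, 200 to 7500 genes and 25% mitochondrial UMIs; doublets were not removed, and both they and free RNA enter the sums. The sums of 32286 features were filtered (filterByExpr), scaled by TMM and tested for Day 7 against Day 2 with edgeR 4.0.16 (quasi-likelihood, R 4.3.3) in 1 fit over all 6 libraries, so that Day 10 also enters the filter, the TMM factors, the set of genes adjusted over and the spread (common biological coefficient of variation 0.0684, 3 residual degrees of freedom). An exact permutation test of 2 against 2 libraries cannot go below p = 0.333 (two-sided), so summed levels are given without a test. In simulated Day 7 against Day 2 counts over 18618 genes, 100% of 40 genes at each of the folds 0.25, 0.5, 1.5, 2 and 4 were called in the right direction, and 10 unchanged genes were called. The simulation changed only a small share of genes, all with ample counts, and gave every gene the same spread. It therefore does not cover rare genes, genes with a wider spread or a change in most genes as in these data. Gene lists and members were chosen with earlier results of these data known, and counts of members cover those that passed the filter. Summed levels cover every list member present in the data, also those that did not pass it.

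Named genes were the 15 largest rises and falls among called genes whose days did not overlap, with at least 20 CPM at the higher day; up to 4 called members per list and direction with at least 5 CPM and members that complete a family; genes the study names for these days; and defining cell type markers. Members named beyond this rule were chosen after their values were seen. Where a gene had no UMI at Day 7, the bound of its fold uses a floor of 3 UMIs over both libraries and covers counting error only. Promoter windows came from RefSeq (GRCm38.p6), matched by symbol. Each motif share of a list counts the windows of all tested members whatever their direction. It describes the choice of the list and was not tested against the change between days. Alternatives used library totals, DESeq2 1.42.0 (size factors or Wald test), limma 3.58.1 with voom, other barcode limits, thinning, a replicate block and single libraries left out.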

Additional observations from a re-analysis of the deposited data

How the results depend on the processing

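The counts of genes called higher and lower stayed within 1.5 times the reported ones under 16 of 17 alternative settings. With every cell thinned to 1000 UMIs, 13685 genes were tested and 3984 were called higher, 3937 lower, 1804 at least 2-fold higher and 1344 at least 2-fold lower, against 6795, 6611, 2863 and 2432; fewer UMIs enter that fit. With library totals 32.6% of calls were higher, against 50.7% with TMM factors, and 109 genes were called in the opposite direction. When 1 of the 4 libraries was left out, so that its day had 1 library assumed to vary like the other groups, the counts ranged over 6017 to 6648 higher, 5623 to 6360 lower, 2760 to 2839 at least 2-fold higher and 2280 to 2394 at least 2-fold lower. The replicate letters were not used as pairs. The deviations of same-lettered libraries correlated by -0.03 between Day 2 and Day 7, -0.12 between Day 2 and Day 10 and -0.10 between Day 7 and Day 10 over 7994 genes. These correlations show no common deviation by letter. They cannot show whether same-lettered cultures share a pool of embryos, which is not given in the sources used here. With a replicate block 6690 genes were called higher and 6479 lower.

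Direction turned for some named genes, nearly all of them with a small log2 fold change, and the cause was not tested. With library totals this was the case for *Adamts6* (-0.083), *Cnn1* (-0.24), *Col4a1* (-0.19), *E2f1* (-0.075), *Fgfr1* (-0.24), *Fgfr2* (-0.23), *Hoxd8* (-0.17), *Hspa5* (-0.041), *Nog* (-0.094), *Ptch1* (-0.12), *Ptprc* (-0.18), *Sox5* (-0.13) and *Sox6* (-0.039), and with thinned cells for *Cdh11* (0.23), *Cnn1* (-0.041), *Fbn2* (0.26), *Igf1r* (0.029), *Nog* (-0.041), *Ptprc* (-0.64), *Sf3b5* (-0.030), *Tll1* (0.40) and *Tnmd* (-0.15). With every deposited barcode it was *Acta2* (0.18) and *Cilp* (0.033). Over the fits without 1 library the direction was not held by *Acta2* (-0.24 to 0.19), *C1qa* (-0.054 to 2.25), *Cnn1* (-0.0040 to 0.13), *Krt5* (-0.28 to 1.79), *Prrx2* (-0.16 to 0.0064) and *Ptprc* (-0.19 to 0.53). Calls were lost by *Ddit4* (-0.090), *Egfl7* (-0.10), *Kdr* (-0.78), *Krt14* (2.67), *Pdia3* (-0.10), *Rtl1* (0.41) and *Tnmd* (0.14) without Day 2 replicate A, by *Fbn2* (-0.16), *Gli1* (-0.29), *Has1* (-0.53), *Stmn2* (0.47) and *Tbx4* (0.37) without Day 2 replicate B, by *Ddit4* (-0.12), *Dnajb11* (-0.18), *E2f1* (0.17), *Egfl7* (-0.18), *Fos* (-0.31), *Gli1* (-0.37), *Hspa5* (0.19), *Kdr* (-0.47), *Krt14* (0.76), *Pdia3* (-0.21), *Rtl1* (0.39) and *Tagln* (-0.27) without Day 7 replicate A, by *Adamts6* (0.18), *Cry1* (-0.17), *Dnajb11* (-0.17), *Egfl7* (-0.13), *Fbn2* (-0.13), *Has1* (-0.92), *Pdia3* (-0.13), *Sox5* (0.18), *Tbx4* (0.29) and *Tnmd* (0.24) without Day 7 replicate B. Calls were gained by *C1qa* (2.25), *Hoxd8* (0.17), *Krt5* (1.79) and *Sox9* (-0.18) without Day 2 replicate A, by *Acta2* (-0.24), *Hsp90b1* (-0.24), *Prrx2* (-0.16) and *Rgs5* (-0.70) without Day 2 replicate B, by *Mylpf* (-3.31), *Rgs5* (-0.75) and *Tnnc2* (-3.57) without Day 7 replicate A. Under another setting than these, calls were gained by *Acta2*, *Cdh11*, *Cnn1*, *Col4a1*, *Egln3*, *Fgfr1*, *Fgfr2*, *Hsp90b1*, *Krt5*, *Mylpf*, *Prrx2*, *Ptch1*, *Rgs5*, *Sox9* and *Tnnc2*. Calls were lost with library totals by *Calr* (0.055), *Cdkn1c* (0.086), *Rtl1* (0.33), *Sf3b5* (0.095), *Snai2* (0.013), *Stmn2* (0.40), *Tbx15* (0.13), *Tbx4* (0.094), *Tnmd* (0.060), *Tpm2* (0.17) and *mt-Nd4l* (0.15), with thinned cells by *Adamts5* (-0.18), *Adamts9* (-0.078), *Barx1* (-0.47), *Calr* (0.19), *Cdkn1c* (0.049), *Col26a1* (-0.11), *Cry1* (-0.068), *Ddit4* (-0.18), *E2f1* (0.31), *Fgf9* (-0.67), *Fos* (-0.29), *Gdf5* (-0.31), *Gli1* (-0.18), *Hey1* (-0.23), *Hoxa11* (-0.20), *Hs6st1* (-0.20), *Kdm3a* (-0.30), *Krt15* (0.62), *Mkx* (-0.0073), *Osr2* (-0.43), *Pdia3* (-0.21), *Psmb9* (1.23), *Rtl1* (0.70), *Slc2a3* (-0.42), *Stmn2* (0.16), *Tbx4* (0.66) and *Tyrobp* (0.55) and under at least 1 further setting by *Ddit4*, *Egfl7*, *Fbn2*, *Krt14*, *Pdia3*, *Rtl1*, *Tagln* and *Tnmd*. The count of lower smooth-muscle-type genes went from 13 to 8 with every deposited barcode.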
